A study of Rattus norvegicus with 4 samples.

Results

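Apolipoproteins and lipid transfer proteins were examined in the hypothalamus of rats treated to be hypothyroid and given triiodothyronine (T3, the active thyroid hormone) or saline. The set held 10 genes (Apoa4, Apoa1, Apoa2, Apoc1, Apoc3, Apod, Apoe, Apoh, Clu and Pltp) of 13440 genes named on the arrays, read by 11 of 41012 probes. The set was chosen by the T3 over saline ratio of Apoa4 on these same arrays. The other members were added as relatives of that gene, by name and function. Ratios of all members are therefore given as descriptions, and where a call on a member is mentioned it restates the choice and is no test. Tests are kept for the dye effect and for genes outside the set.

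The T3 group was 4 male Sprague Dawley rats whose drinking water held 0.025% methimazole, which blocks the making of thyroid hormone, for 22 days and which were injected with T3 (25 µg per 100 g) on day 21. The saline group was 4 rats under the same methimazole course that were injected with saline on that day. All rats were thus taken to be hypothyroid before injection, from the methimazole course and not from a hormone level. Tissue was taken 24 hours after the injection. The labels give an age of 7 weeks for the animals under housing and of 10 weeks for the samples. RNA came from a hypothalamic block between bregma -2.12 and -4.52 mm, so the values are averages over all cells of the block. Each of 4 two-colour arrays held RNA of 1 T3 rat and 1 saline rat, and the dyes were swapped, so that Cy5 marked T3 on arrays 1 and 3 while Cy3 marked it on arrays 2 and 4.

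Apolipoproteins are proteins that coat lipid particles and direct them to receptors and enzymes. In the body most of them are made by liver and intestine, whereas brain glia make their own particles, built mainly around apolipoprotein E, to move cholesterol and phospholipid between cells. Transfer proteins such as Pltp move phospholipid between such particles. Apolipoprotein A-IV, the product of Apoa4, is secreted by the small intestine during fat absorption, and in rats it lowers food intake when given into the brain.

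Of the 10 genes, 7 passed the filter on dim probes, which asked that a probe be well above background on at least 3 of 4 arrays in the T3 or the saline channel. Apoc3 did not pass with either of its 2 probes, and Apoa2 and Apoh were not well above background in any rat. The block carried the mark of hypothalamus, with 18 of 19 hypothalamic neuron genes passing the filter. Their summed signal was 231000 to 362000 in T3 rats and 244000 to 377000 in saline rats, and Otp was not well above background in any rat. Hr, a nuclear corepressor and known T3 target, was 2.26-fold higher in T3 rats (log2 1.18 ± 0.15, SD, n = 4 arrays, limma adjusted p = 0.0130). With some alternative processing, or with array 1, 3 or 4 left out, 0 probes had a limma adjusted p under 0.05, so neither did Hr.

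Apoa4, Apoc3 and Apoa1 lie beside each other on rat chromosome 8, followed by Apoa5. The proximal promoters of Apoa4, the member with the highest ratio, and of its neighbour Apoa5 are shown to compare their content of the half-site that thyroid hormone receptors bind. Each runs from 250 bases before to 50 bases after a transcription start (RefSeq, build GRCr8, plus strand, 5′ to 3′), at chr8:55435529-55435828 for Apoa4 and chr8:55457621-55457920 for 1 of the starts of Apoa5. Capitals mark AGGTCA or its reverse complement TGACCT.
Apoa4: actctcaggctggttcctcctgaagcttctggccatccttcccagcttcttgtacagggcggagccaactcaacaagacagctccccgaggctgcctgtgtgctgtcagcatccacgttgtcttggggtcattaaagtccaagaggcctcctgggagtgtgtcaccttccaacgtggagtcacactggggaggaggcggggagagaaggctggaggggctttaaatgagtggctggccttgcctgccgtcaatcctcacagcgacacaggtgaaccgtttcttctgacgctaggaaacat
Apoa5: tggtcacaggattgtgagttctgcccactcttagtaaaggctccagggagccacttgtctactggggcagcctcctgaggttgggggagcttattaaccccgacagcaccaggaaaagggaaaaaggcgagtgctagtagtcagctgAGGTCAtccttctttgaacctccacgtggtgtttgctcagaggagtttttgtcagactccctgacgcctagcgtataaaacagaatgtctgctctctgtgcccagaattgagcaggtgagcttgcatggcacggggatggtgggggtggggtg
The Apoa4 window held 0 half-sites on either strand. The Apoa5 window held 1, which ended 97 bases before the start, and the window of another Apoa5 start, at chr8:55457775-55458074 and not printed, held 0. Among 33469 promoter windows of this length, 16.2% held the half-site, and 2 held a direct repeat, AGGTCA followed by 4 bases (NNNN) and a second AGGTCA, on either strand. Each copy within a repeat also counts as a half-site. These letters describe the windows alone, and no binding was measured. Windows were matched for 6 of the 10 members.

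Apoa4 (probe A_44_P1030225) was higher in the T3 rat than in the saline rat of every array. Normalized log2 signals were 8.78, 11.13, 8.79 and 9.09 in the T3 rats of arrays 1 to 4, against 7.79, 10.17, 7.47 and 7.32 in the saline rats. The groups overlapped, because both rats of array 2 lay above all others. The ratios were 0.98, 0.95, 1.31 and 1.76, with a mean of 1.25 ± 0.38 on the log2 scale (SD, n = 4 arrays), or 2.38-fold. Saline signal was well above background on 3 of 4 arrays and T3 signal on all 4. The ratio stood at the 99.5th percentile or higher of the kept probes on each array. The mean was 1.15 with T3 in Cy5 and 1.36 with T3 in Cy3, so the ratio was of like size in both dye orientations.

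**Figure D1:**
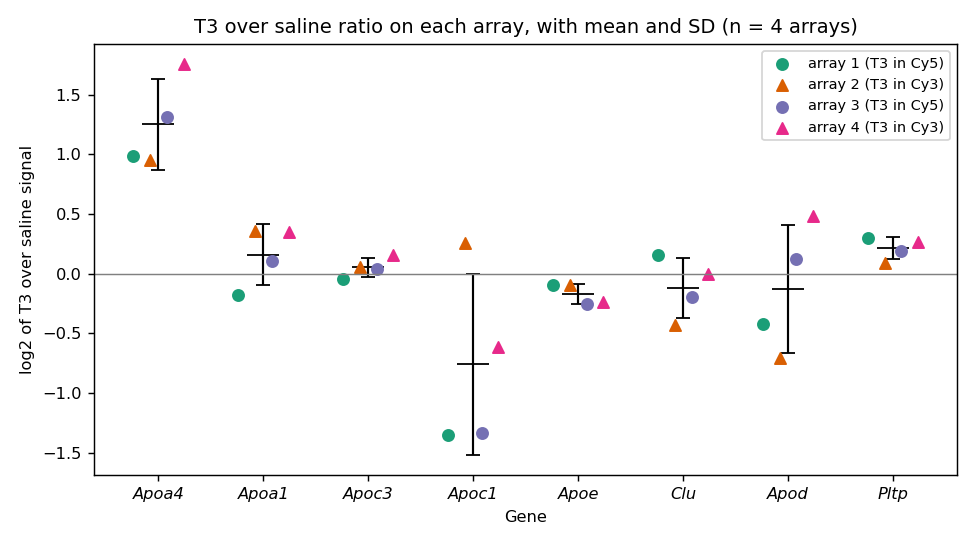
T3 over saline ratio (log2) of each measured gene on each array; circles are arrays with T3 in Cy5, triangles those with T3 in Cy3, and bars give the mean and SD of 4 arrays. All 4 points of Apoa4 lie between 0.95 and 1.76, while those of Apoc1 run from -1.35 to 0.26.

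The level of Apoa4 on array 2 stood apart by more than the ratio between treatments. The T3 rat of array 2 lay 4.11-fold above the next highest T3 rat, and the saline rat of array 2 lay 5.21-fold above the next highest saline rat. A gap at least as large in both rats of array 2 was seen for 3 of 23184 kept probes (0.0129%), Apoa4 among them. Rats of an array share the hybridization, so that an array effect and a trait common to both rats cannot be told apart. Without array 2, Apoa4 averaged 8.88 ± 0.18 in T3 rats and 7.53 ± 0.24 in saline rats (SD, n = 3 each), with no overlap, and the mean ratio was 1.35 ± 0.39. Over all kept probes, 3.19% had every T3 rat above every saline rat on those 3 arrays. Array 2 was singled out by these same Apoa4 levels, so the lack of overlap without it is a description only. Among named genes with the widest such gap on array 2, Apoa4 had 2.04 log2 units, Ccdc33 1.45, Tshb (the beta subunit of thyrotropin) 1.32, Slc22a6 1.31, Cnmd 1.18, S100g 1.15 and Agrp (the agouti-related peptide of feeding neurons) 0.99. The genes other than Apoa4 were chosen after their values were seen.

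Markers of intestine and liver, where apolipoproteins are made in the body, were set beside Apoa4. Of 9 enterocyte markers with a probe, 2 passed the filter, and Fabp1, Fabp2, Alpi, Lct, Cdx2 and Slc5a1 were not well above background in any rat. The summed signal of the 9 was 878 to 917 in T3 rats and 825 to 868 in saline rats. Every T3 sum lay above every saline sum. The sum takes in the 2 genes that passed as well as the 6 never well above background, and the source of the gap was not tested. Of 14 hepatocyte markers 4 passed, and 7, among them Ahsg, Fgb, Tat and Cps1, were not well above background in any rat. Summed hepatocyte signal, likewise with the genes at background taken in, was 2000 to 4510 in T3 rats and 2190 to 4720 in saline rats. Vtn, the brightest of them and also made in brain, stood at -0.056 ± 0.12, and Alb, the albumin gene, at -0.23 ± 0.36. The enterocyte genes that passed, Anpep and Slc15a1, stood at 0.15 ± 0.04 and 0.23 ± 0.15, both higher on all 4 arrays without passing limma's threshold. The part of such cells in the Apoa4 values was not tested.

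The neighbours of Apoa4 on chromosome 8 were dim. Apoa1, the main protein of high-density lipoprotein, had signals of 6.72, 7.25, 6.75 and 7.23 in T3 rats and 6.90, 6.89, 6.64 and 6.89 in saline rats, which overlapped. Its mean ratio was 0.16 ± 0.25, higher on 3 of 4 arrays, and it was well above background in 2 of 4 T3 rats and 3 of 4 saline rats. Apoc3, an inhibitor of lipoprotein lipase, averaged 0.054 ± 0.082 by its brighter probe and 0.12 ± 0.17 by the other, both well above background in 2 of 4 T3 rats and 1 of 4 saline rats. Of the T3 rats, that of array 2 was the brightest by both Apoc3 probes, at 7.04 and 7.40, against 6.02 to 6.79 in the other T3 rats. The saline rat of array 2 was likewise the brightest saline rat, at 6.98 and 7.07, against 5.98 to 6.65 in the others. Apoa5, a regulator of plasma triglyceride at the same locus and outside the set, gave 0.22, -0.29, 0.38 and 0.05 (0.09 ± 0.29, limma adjusted p = 0.93).

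Apoa2, the other main high-density lipoprotein protein, and Apoh, a phospholipid-binding plasma protein, had signals at background in all 8 rats, and no fold is given for them. Apoa2 signals were 6.24 to 6.49 in T3 rats and 6.14 to 6.35 in saline rats. Apoh signals were 6.13 to 6.24 in T3 rats and 6.12 to 6.22 in saline rats. Neither gene was measurable at this signal, which does not show that it was absent.

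**Figure D2:**
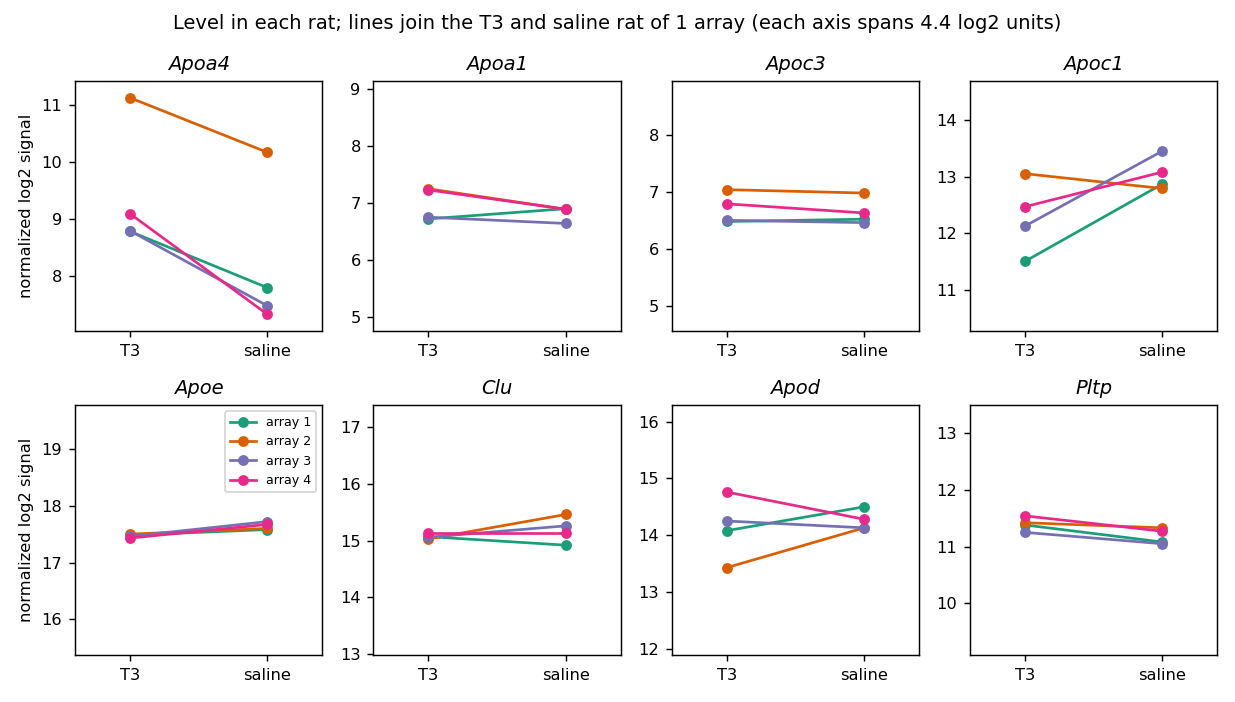
Normalized log2 signal of 8 genes in each rat, T3 left and saline right, with a line joining the rats of 1 array; every vertical axis spans 4.4 log2 units. Apoa4 lines slope down from T3 to saline on all arrays, with array 2 set apart at 11.13 and 10.17, and Apoc1 lines slope the other way on arrays 1, 3 and 4.

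Apoc1 (probe A_42_P495969) had the lowest mean ratio of the set and the widest spread. This gene encodes a small apolipoprotein that inhibits lipoprotein uptake and lipases, and in brain it is known from glia. Its signals were 11.51, 13.05, 12.13 and 12.47 in T3 rats, against 12.87, 12.79, 13.45 and 13.08 in saline rats. T3 rats were lower on arrays 1, 3 and 4 and higher on array 2, so the groups overlapped. The ratios were -1.35, 0.26, -1.33 and -0.61, with a mean of -0.76 ± 0.76 (SD, n = 4 arrays), a level 0.591 times that of saline rats. The SD exceeded that of 99.2% of kept probes. Without array 2 the mean was -1.1 ± 0.42, or 0.467 times, and every T3 rat lay below every saline rat, as for 2.31% of kept probes on those arrays. Array 2 was the only array with a positive ratio, so leaving it out must make the mean lower. Without array 1, 3 or 4 instead, the mean was -0.56, -0.57 and -0.81.

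The dye orientation moved with the Apoc1 ratio. Its mean was -1.34 with T3 in Cy5 and -0.18 with T3 in Cy3. A limma fit with a dye term gave a dye coefficient, the mean with T3 in Cy5 minus that over both orientations, of -0.58 for Apoc1 (limma adjusted p = 0.20) and of -0.19 for Apoa1 (limma adjusted p = 0.26). In the other 5 kept members the dye coefficients lay between -0.11 and 0.10, with adjusted p from 0.64 to 0.97. Across all kept probes 0 (0%) passed limma's adjusted threshold for a dye effect, while 17% had an unadjusted p under 0.05. The Cy3 arrays themselves differed, at 0.26 and -0.61, whereas the Cy5 arrays gave nearly the same value.

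Apoe and Apoc1 are neighbours on rat chromosome 1, with Apoc4 and Apoc2 next to them. Apoe (probe A_44_P171440), the main lipid carrier of brain and a product of astrocytes, had signals of 17.48, 17.50, 17.46 and 17.43 in T3 rats and 17.58, 17.60, 17.72 and 17.67 in saline rats. Every T3 rat lay below every saline rat. The difference was small, with ratios of -0.10, -0.10, -0.26 and -0.23 and a mean of -0.17 ± 0.09 (SD, n = 4 arrays), or 0.888 times. No array was saturated for Apoe. Astrocyte markers, all 12 of which passed the filter, had array medians of -0.11, -0.30, -0.18 and 0.012. Their summed signal was 171000 to 197000 in T3 rats and 200000 to 212000 in saline rats, so that here too every T3 rat lay below every saline rat. Fewer cells of a type and less RNA per cell cannot be told apart in such tissue, and the part of astrocytes in the Apoe values was not tested. Apoc4, a minor apolipoprotein outside the set, was at -0.34 ± 0.09, lower on all 4 arrays without passing the threshold (limma adjusted p = 0.18). Apoe ratios thus spanned 0.16 log2 units while those of Apoc1, its neighbour, spanned 1.61.

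Clu (probe A_44_P311126), or apolipoprotein J, a secreted chaperone of astrocytes and ependymal cells, differed little on average. Its signals were 15.07, 15.03, 15.06 and 15.14 in T3 rats, against 14.92, 15.46, 15.26 and 15.14 in saline rats. The T3 rats lay close together, inside the range of the saline rats. The mean ratio was -0.12 ± 0.25, with 3 of 4 arrays lower. Clu and Apoe had the closest ratios of any pair of kept members, with a Euclidean distance of 0.48 over the 4 arrays.

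Apod (probe A_43_P11558), a lipocalin rather than a classical apolipoprotein and a product of oligodendrocytes and other glia, had no constant direction. Its signals were 14.08, 13.43, 14.25 and 14.76 in T3 rats and 14.50, 14.13, 14.13 and 14.28 in saline rats. The T3 rats spread on both sides of the saline rats. Ratios of -0.42, -0.71, 0.12 and 0.48 gave a mean of -0.13 ± 0.54, and the SD exceeded that of 97.6% of kept probes. Oligodendrocyte markers, of which all 13 passed the filter, had array medians of -0.17, -0.37, -0.22 and 0.085. Summed oligodendrocyte signal was 163000 to 277000 in T3 rats and 247000 to 301000 in saline rats. Mbp, a myelin protein gene, was at 0.077 ± 0.21, and the part of these cells in the Apod values was not tested.

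Pltp (probe A_44_P436280), the phospholipid transfer protein, was slightly higher in every pair. Its signals were 11.38, 11.42, 11.25 and 11.54 in T3 rats, against 11.08, 11.33, 11.05 and 11.27 in saline rats. The groups overlapped in part, since the lowest T3 rat lay below the 2 highest saline rats. Ratios of 0.30, 0.09, 0.19 and 0.27 gave a mean of 0.21 ± 0.09, or 1.16-fold. Both Pltp and Apoe had a spread below the median SD of all kept probes, 0.16.

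Counts over the members are given against all probes and nothing is read from them, because this contrast chose the set. Of 23184 kept probes, 22 (0.0949%) were past limma's adjusted threshold as higher and 1 (0.00431%) as lower. Apoa4 was among the 22, which only restates why the set was chosen. It was not past the threshold without array 1, 3 or 4, with a dye term, processed signals, median centring, eBayes with trend and robust, or the authors' table. Apoa4 and Pltp were higher on all 4 arrays, as were 8.1% of probes, and Apoe was lower on all 4, as were 8.05%. For 0.981% of probes every T3 rat lay above every saline rat, which held for 0 kept members, and for 0.619% every T3 rat lay below, which held for Apoe. The median ratio was -0.12 over the 7 kept members and 0.0044 over all 9302 kept genes, and without array 2 the members' median was 0.061.

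**Figure D3:**
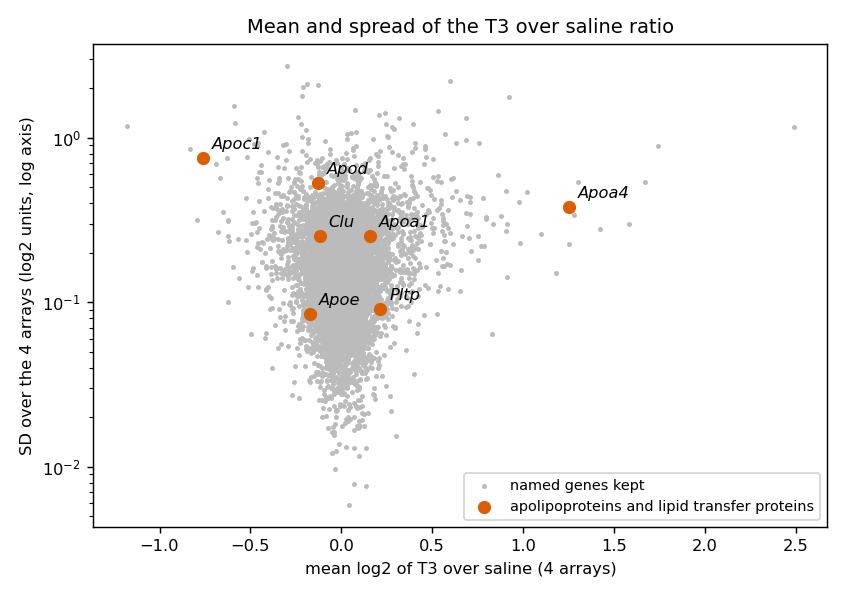
Mean log2 ratio of T3 over saline (horizontal) against its SD over 4 arrays (vertical, log axis) for the 9302 kept genes in grey and the 7 kept members in orange. Apoa4 lies far to the right at 1.25, Apoc1 to the upper left at -0.76 with an SD of 0.76, and Apoe and Pltp low in the plot with an SD of 0.09.

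The genes whose ratios lay nearest to those of Apoa4 were found by Euclidean distance over the 4 arrays among named kept genes. Tnfrsf9, a receptor of the tumour necrosis factor family, was the nearest, at a distance of 0.38 and with ratios of 1.26, 0.95, 1.31 and 1.5. Tnfsf13, a ligand of the same superfamily, lay at 0.43, and Hr at 0.47. Cyp26b1, which degrades retinoic acid, lay at 0.67 and Bcl3, a partner of nuclear factor kappa B, at 0.67. The distance from Apoa4 to the nearest other member, Pltp, was 2.17. The measure picks genes of like size of ratio, and it rests on 4 arrays.

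Lipid transport genes outside the set were then tested, in 5 lists by role. Of 95 listed genes, 79 had a named probe and 56 passed the filter on dim probes. In limma 0 of the 56 passed the adjusted threshold in the main setting, where 23 of 23184 kept probes passed. The count was 0 in every alternative run too. With processed signals, median centring, eBayes with trend and robust, or without replicate 1, 3 or 4, 0 probes passed at all. The count was thus fixed in those runs. With so few probes called, nothing is read from it. At an unadjusted limma p under 0.05 there were 10 of the 56 (17.9%), 7 lower and 3 higher, against 8.13% of all kept probes. The mean was higher for 24 and lower for 32 of the 56.

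Among 17 other lipid transfer and lipid binding proteins, 7 had a higher and 10 a lower mean (median -0.059). Fabp7, the fatty acid binding protein of radial glia and astrocytes, had the smallest p of all 56 genes. Its ratios were -0.40, -0.73, -0.42 and -0.43, with a mean of -0.49 ± 0.16, lower on all 4 arrays without passing (limma adjusted p = 0.10). Fabp5, a related fatty acid binding protein, was at -0.28 ± 0.10, also lower on all 4 arrays (limma adjusted p = 0.28). The summed astrocyte signal was lower in T3 rats, as given beside Apoe, and its part in the Fabp7 values was not tested. Aqp4 and Slc1a3, the brightest astrocyte markers, stood at -0.15 ± 0.22 and -0.15 ± 0.17. Of the 12 astrocyte markers 8 had a lower and 4 a higher mean, from -0.62 to 0.34.

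Of 13 lipoprotein receptors and partners, 5 had a higher and 8 a lower mean (median -0.023). Mylip, a ubiquitin ligase that limits lipoprotein uptake, was at 0.33 ± 0.25, higher on all 4 arrays (limma adjusted p = 0.42).

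Of 13 efflux transporters and lipoprotein enzymes, 5 had a higher and 8 a lower mean (median -0.094). Angptl4, an inhibitor of lipoprotein lipase, was at -0.23 ± 0.15 (limma adjusted p = 0.52). Abca2, a lipid transporter of oligodendrocytes, was at -0.23 ± 0.10 over the 3 arrays that had a value (limma adjusted p = 0.56). Of 10 transcription factors of lipoprotein genes, 6 had a higher and 4 a lower mean (median 0.036). Rxrg, a retinoid X receptor, was at -0.39 ± 0.21 (limma adjusted p = 0.25) and at -0.37 ± 0.14 by its other probe (limma adjusted p = 0.20), and Esrra, an oestrogen-related receptor, at 0.21 ± 0.12 (limma adjusted p = 0.53). Of the remaining apolipoproteins 3 passed the filter, 1 with a higher and 2 with a lower mean (median -0.058). Across all named genes kept, the median was 0.0044.

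Markers of blood differed widely between arrays. Blood cell genes had array medians of 1.4, -3.2, 0.34 and 0.97, and Hbb-b1, a haemoglobin subunit, was at -4.25 on array 2. Alas2, the haem synthesis enzyme of red blood cells, was at 1.35, -3.2, 0.42 and 0.93. Summed blood signal was 5730 to 64100 in T3 rats and 16300 to 95800 in saline rats. Array 2 is also the array on which Apoc1 was higher and Apod lowest, and the part of blood in those values was not tested.

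Choroid plexus, which makes lipid carriers for the cerebrospinal fluid, had array medians of 0.25, -0.37, 0.51 and 0.07 over 8 of 13 markers. Summed over all 13 markers, the signal was 3990 to 18000 in T3 rats and 3120 to 4780 in saline rats. Otx2 and Calml4, the brightest of them on average, stood at 0.44 ± 0.39 and -0.33 ± 0.24, and Kl, Cldn2 and Slc4a5 were not well above background in any rat. Ttr, the transthyretin gene, which was picked out for its value, stood at 3.53 on array 3, where Apoa4 was at 1.31 and Clu at -0.20. The part of choroid plexus in the members' values was not tested.

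Meningeal genes, of which all 9 passed, had medians of 0.22, -0.11, -0.31 and 0.51, with Igf2 at 0.0056 ± 0.76 and Col1a2 at 0.014 ± 0.33. Apod, known also from fibroblasts of the meninges, stood at -0.42, -0.71, 0.12 and 0.48 on arrays 1 to 4. Apod and the meningeal, astrocyte and oligodendrocyte medians were each highest on array 4. The part of meninges in the Apod values was not tested. Ependymal markers had a median of -0.25 over 6 genes, with Foxj1 at 0.14 ± 0.26 and Tekt4 at -0.28 ± 0.21. Microglial markers had a median of 0.011 over 11 genes, C1qb at 0.08 ± 0.30 and C1qa at 0.04 ± 0.41. Endothelial and mural markers had a median of 0.025 over 11 genes, Kdr at 0.32 ± 0.32 and Slc2a1 at -0.035 ± 0.083. Hypothalamic neuron genes had array medians of -0.062, -0.07, -0.40 and 0.048, with Pmch at -0.17 ± 0.24 and Avp at -0.59 ± 1.57. In these 11 marker lists 0 genes passed the adjusted threshold (limma), which 23 of all 23184 kept probes passed.

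**Figure D4:**
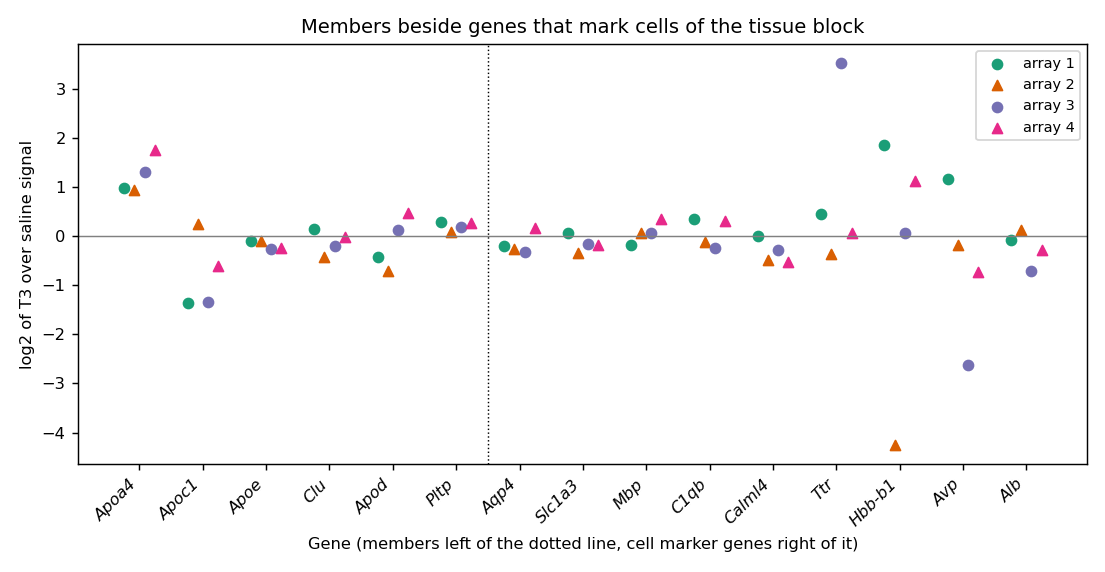
T3 over saline ratio (log2) on each array for 6 members, left of the dotted line, and for marker genes of astrocytes, oligodendrocytes, microglia, choroid plexus, blood, hypothalamic neurons and liver, right of it. Hbb-b1 at -4.25 on array 2, Ttr at 3.53 on array 3 and Avp at -2.63 on array 3 lie outside the range of all members.

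The authors' deposited table of log ratios was set beside these values. Its scale, centring and direction are not given in the sources used here. It is read as T3 over saline because it correlated positively with the scanner ratios turned that way. A correlation does not depend on scale, so reading the table as log2 is an assumption. Slopes of the table on the scanner ratios over kept probes were 0.38, 0.45, 0.33 and 0.46 on arrays 1 to 4. For Apoa4 the authors' deposited table held 1.17, 0.65, 1.33 and 1.71 on arrays 1 to 4, each within 0.31 of the value from the scanner signals. For Apoc1 the authors' deposited table held -1.2, -0.085, -1.19 and -0.83, again with array 2 apart. For Apoe it differed, since the authors' deposited table held -0.29, -0.51, 0.96 and -0.92 where the scanner signals gave -0.10, -0.10, -0.26 and -0.23. For Clu the authors' deposited table held 0.052, 0.21, 0.52 and -0.26, for Apod -0.62, -0.087, 0.73 and -0.46, and for Pltp -0.0085, 0.38, 0.63 and 0.041. In all 4 of these genes array 3 was the highest column of the authors' deposited table. For the dimmer Apoa1 the authors' deposited table held 0.17, 0.19, 0.20 and 0.045. Over kept probes, which are not independent replicates, the table correlated with the scanner ratios at 0.43, 0.43, 0.19 and 0.28 on arrays 1 to 4 (Pearson r). Its columns for arrays 3 and 4 correlated with each other at -0.51, against 0.049 from the scanner signals.

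**Figure D5:**
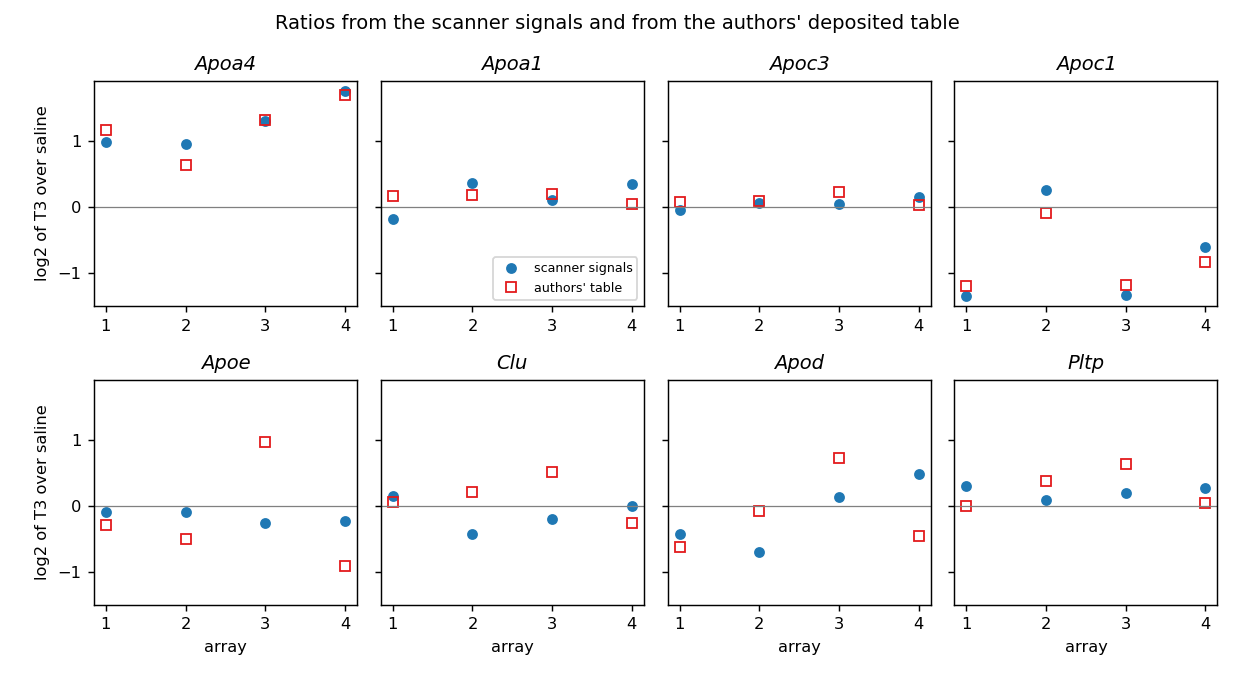
Log2 ratio of T3 over saline on arrays 1 to 4 (horizontal) from the scanner signals (filled circles) and from the authors' deposited table (open squares) for 8 genes. The squares of Apoa4 and Apoc1 lie near the circles, while those of Apoe lie at 0.96 on array 3 and -0.92 on array 4, away from circles at -0.26 and -0.23.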

How the data were processed

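Hypothalamic RNA of 8 rats was measured on 4 two-colour Agilent arrays. Each deposited scan, from Feature Extraction 10.7.3.1 by Agilent per the file headers, gave median spot and background intensity for both dyes. Agilent's processed intensity and its log10 ratio (red over green) stood beside them, per the file headers. A table of ratios deposited by the authors was read as log2, and the submitters' processing notes name limma 3.18.9. The base, centring and direction of that table are not given in the sources used here, and its array medians were 0.0026, -0.0024, 0.0021 and 0.0030.

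Here, normexp (offset 50) and loess in limma 3.58.1 (R 4.3.3) were applied to median signals, with control spots at weight 0 and outlier spots left out, and ratios were turned to T3 over saline. Levels per rat came from Aquantile scaling. Well above background were 49.8% to 67.3% of probes in T3 channels and 51.1% to 62.5% in saline channels, and precision is limited by there being 4 arrays. Probes well above background on at least 3 of 4 arrays in a channel, with at least 3 values, were kept (23184 of 41012). Accessions were matched to RefSeq genes (GRCr8, names alone), which named 16964 probes, and a gene took its brightest kept probe.

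Tests used limma (lmFit, eBayes, 2-sided, Benjamini-Hochberg over all kept probes, threshold 0.05) with 3 residual and 4.36 prior degrees of freedom, tested on simulated data. Named were all members, of each pathway list up to 3 genes past the threshold or else the 2 with the smallest p, the 5 genes nearest to Apoa4, Hr, and the 2 brightest genes of each marker list. Members, lists and tests were chosen with earlier results of these data known. Alternatives were no background subtraction, processed signals, median centring, the authors' table, other filters on dim probes, a dye term, eBayes with trend and robust, averaged probes, and leaving out each array. Some genes that the naming rule picks are not reported here.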

Additional observations from a re-analysis of the deposited data

Results flagged for a closer look

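For 5 of 79 sets of 4 values, 1 array was set apart from the other 3, by a gap to its nearest neighbour that took up most of the range (Dixon's 95% limit). Chance gives about 1 in 20, or 4, if the sets are independent. The T3 and saline levels of an array share 1 hybridization, so the sets of a gene are not independent. Apoa4 stood apart on array 2 in both groups, at 11.1 in the T3 rat against 8.78 to 9.09 in the others (gap over range 0.868) and at 10.2 in the saline rat against 7.32 to 7.79 (0.835). Apoa1 was at 6.64 in the saline rat of array 3 against 6.89 to 6.90 (0.939), with a signal there that was not well above background. Fabp7 was at -0.73 on array 2 against -0.43 to -0.40 (0.893). Esrra was at 0.38 on array 3 against 0.15 (0.968).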

How the results depend on the processing

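Apoa4 kept a positive ratio in all 13 alternatives, from 1.08 without replicate 4 to 1.82 with Agilent's processed signals, where its arrays gave 1.42, 1.02, 2.29 and 2.55. A dye term, eBayes with trend and robust, averaged probes and the filters on dim probes left it at 1.25. Those settings cannot move the mean ratio of a gene read by 1 probe, so its sign there was fixed in advance. This holds for the other members read by 1 probe too. Leaving out 1 array could not change the sign of Apoa4, Apoe or Pltp either, as each had the same sign on all 4 arrays. The filter that asks for both channels of all arrays drops Apoa4 and Apoa1, so their ratios there are only the main values restated. Apoa1, Apoc1, Apoe and Pltp kept their sign in all 13, while Apoc3 changed sign in 2, Apod in 1 (0.061 without replicate 2) and Clu in 1 (0.13 with the authors' table). The 23 probes past the threshold became 0 with processed signals, median centring or eBayes with trend and robust (1949, 127 and 1160 by an unadjusted p under 0.05, where 1885 is the value reported), 10 with the authors' table, 15 with a dye term and 66 with no filter on dim probes. The number of members past it, 1 (Apoa4, on which the set was chosen, so that this is no test), became 0 with processed signals, median centring, eBayes with trend and robust, the authors' table, a dye term, or the filter that asks for both channels of all arrays, which removes Apoa4. Leaving out 1 array gave 0 to 68 probes and 0 to 1 members, with 0 of each without replicate 1, 3 or 4 (1396, 1380 and 1576 by the unadjusted p) and 68 and 1 without replicate 2. The members' median of -0.12 was 0.13 with the authors' table, 0.037 with no filter, and -0.15 to 0.061 with 1 array left out. The cause of these shifts was not tested. Apoa2 and Apoh were not recomputed singly, being at background in every rat. The ratios are taken within arrays, each of which pairs a T3 rat with a saline rat, so the limma fit is already paired and was run with no other block. Signal over background limits Apoa1, Apoc3 and the saline level of Apoa4.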
